A study of Mus musculus with 4 samples.

Results

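Adrenergic, muscarinic, endothelin and angiotensin receptors are the molecules through which a ventricle reads noradrenaline, adrenaline, acetylcholine, endothelin and angiotensin II, and dopamine beta-hydroxylase (Dbh) is the enzyme that makes noradrenaline. The 9 genes described here are 8 such receptors (Adra1a, Adra1b, Adra1d, Adrb1, Adrb3, Chrm2, Ednra and Agtr1a) and Dbh, taken by symbol from a table of 23847 rows with 23352 symbols. Each symbol stood on 1 row. They were compared between 2 ventricular libraries from mice with heart-specific Cdk8 overexpression (Cdk8Tg) and 2 from wild-type (WT) mice. All 4 came from males of the C57BL/6 background at postnatal day 21, and polyadenylated RNA was sequenced. Cdk8 encodes a kinase that acts within the Mediator complex. The sources used here do not state the promoter that drives the transgene, the number of transgenic lines or whether animals were pooled. Cdk8 itself stood at 7309 and 8122 FPKM, a fragment count divided by transcript length and library depth, in Cdk8Tg, against 7.89 and 9.86 FPKM in WT, in keeping with the labels.

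All of these receptors belong to the family with 7 membrane-spanning helices that signal through G proteins. The alpha-1 adrenergic, endothelin A and type 1 angiotensin receptors couple to Gq, which activates phospholipase C and protein kinase C and is known for driving hypertrophic growth of cardiac myocytes. The beta receptors couple to Gs, which raises cyclic AMP and strengthens and quickens the beat. The M2 muscarinic receptor couples to Gi and opposes them, in part by opening the potassium channel built from the products of Kcnj3 and Kcnj5. Noradrenaline normally reaches the ventricle from sympathetic nerve endings, whose cell bodies lie outside the heart.

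The ventricles of Cdk8Tg mice held far less Adra1a and Dbh RNA, 42.0% and 55.0% of the WT levels of Chrm2 and Adra1b, and more Adrb1. The calls of Adra1b and Adrb1 depended on the analysis and on single libraries, and the authors' deposited table did not call Adrb1. Agtr1a, Ednra and Adra1d were not called changed. Of the 9 genes, 8 had a mean of at least 1 FPKM over the 4 libraries and were tested, and Adrb3 was not. Adra1a and Dbh passed this filter through their WT values alone. With limma on log2(FPKM + 1) and Benjamini-Hochberg adjustment over all 11888 rows tested, 4 of the tested genes fell and 1 rose, at an adjusted p under 0.05. Of all rows tested, 7.98% were called lower in Cdk8Tg and 16.9% higher, 24.9% in all. The groups did not overlap for 7 of the 8 genes, against 70.3% of all rows tested. The median log2 change of the 8 genes was -0.52, and that of all rows tested was 0.13. Scaling moves that median, to 0.00 with median-of-ratios scaling and to 0.30 with an equal FPKM sum in every library, and the log2 changes below are given without subtracting it, unless said otherwise. The authors' deposited table called 4 of the 8 genes it tested (Adra1a, Adra1b, Chrm2 and Dbh), against 14.0% of all genes tested there.

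How many of the 5 calls stayed, and how many of all rows were called, moved with the analysis. All 5 stayed with a pseudocount of 0.1 (25.0% of all rows called), a pseudocount of 5 (24.1%) and the replicate number as a block (23.8%). Of the 5, 4 stayed after median-of-ratios scaling (19.6%), quantile normalization (17.1%), equal-sum scaling (46.7%), without a variance trend (22.4%) and with robust variance (26.5%). With no filter 2 stayed (5.88%), and a minimum of 5 FPKM kept both of the 2 it tested (32.0%). Leaving out Cdk8Tg replicate 1 left 4 (20.0%) and leaving out Cdk8Tg replicate 2 left 3 (11.0%). Leaving out WT replicate 1 left 2, Adra1a and Dbh (5.28%), and leaving out WT replicate 2 left Adra1a alone (2.41%).

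**Figure D1:**
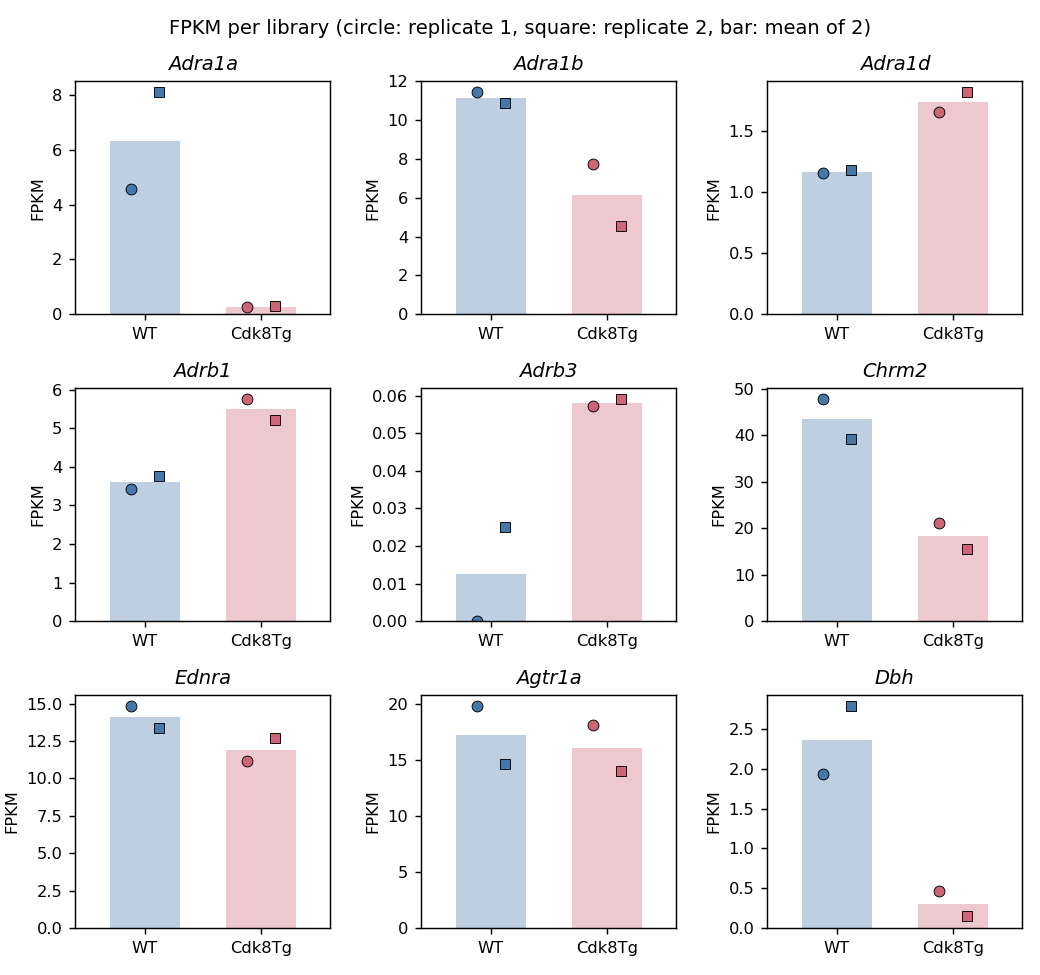
FPKM of each of the 9 genes by group, 1 panel per gene with its own axis from 0. Points are libraries (circle replicate 1, square replicate 2) and bars are means of 2. Adra1a, Adra1b, Chrm2 and Dbh lie lower in both Cdk8Tg libraries than in both WT libraries, Adrb1 lies higher, and Agtr1a overlaps.

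The stretches before the start sites of one gene that fell, Adra1b, and of the one that rose, Adrb1, are shown with a site from Dbh, because the 2 adrenergic genes went opposite ways. They were read from RefSeq's promoter windows (GRCm38.p6), which held 6 windows for 5 of the 9 genes (Adra1b, Adrb1, Chrm2, Ednra and Dbh). Adra1b has 2 windows, and the one nearer to the authors' locus is shown. That window lies within the gene as GENCODE places it, and the other lies near the GENCODE start. Capitals mark matches to a searched motif on either strand. The Adra1b stretch is chr11:43836490-43836739 on the minus strand, the Adrb1 stretch chr19:56721867-56722116 on the plus strand, and the Dbh site chr2:27165273-27165302 on the plus strand, all written 5′ to 3′ along the gene. The Dbh site lies before the RefSeq start but within the gene as GENCODE places it.
Adra1b: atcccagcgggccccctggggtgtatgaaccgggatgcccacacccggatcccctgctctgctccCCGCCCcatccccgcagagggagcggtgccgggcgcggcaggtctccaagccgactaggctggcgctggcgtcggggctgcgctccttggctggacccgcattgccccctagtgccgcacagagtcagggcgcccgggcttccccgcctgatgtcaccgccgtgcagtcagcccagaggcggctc
Adrb1: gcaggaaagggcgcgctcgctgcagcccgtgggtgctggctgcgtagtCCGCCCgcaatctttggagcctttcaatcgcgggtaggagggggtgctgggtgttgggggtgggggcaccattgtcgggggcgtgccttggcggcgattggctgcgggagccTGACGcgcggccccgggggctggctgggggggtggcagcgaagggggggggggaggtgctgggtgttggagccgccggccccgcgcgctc
Dbh: gtttccaacaggCGTCAgagatttgttgga
The GC content of these 250 bases was 72.8% for Adra1b and 74.0% for Adrb1, against a median of 52.4% over all 32851 windows and 41.6% in the other Adra1b window. The 250 bases before each start site were searched for 6 motifs. The GC box, GGGCGG, occurs in the stretches of Adra1b, Adrb1 and Chrm2 and in 32.7% of all windows. The core of the cAMP response element, TGACG, occurs in the RefSeq windows of Adrb1 and Dbh and in 17.8% of all windows. The full element TGACGTCA, which contains that core, occurs in 1.55% of all windows. The MCAT motif CATTCC occurs in 12.6%, the TATA box TATAAA in 12.4% and the E-box CACGTG in 6.02%. None of these last 4 is in the 6 windows, which says only that these letters are not there.

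Adra1a, the alpha-1A adrenergic receptor, showed the largest change of the 8 tested genes. It stood at 0.252 and 0.305 FPKM in Cdk8Tg replicates 1 and 2 and at 4.57 and 8.10 FPKM in WT replicates 1 and 2. Both WT libraries lay far above both Cdk8Tg libraries, although they differed from each other, and the means were 0.278 ± 0.037 and 6.34 ± 2.50 FPKM (SD, n = 2 per group). The mean in Cdk8Tg was 22.8-fold lower, or 4.39% of WT. The log2 change was -2.48 ± 0.24 (SE; limma adjusted p = 0.0056), the 13th largest of 949 falls. On the log2(FPKM + 1) scale a change to so low a level is understated, and a pseudocount of 0.1 gave -4.04. At the estimated depth the Cdk8Tg values rest on about 13.2 and 15.3 fragments and the WT values on about 266 and 473. Adra1a was thus seen at a level that ranked between the 66.0 and 74.9 percentiles of all rows in WT and at the 42.1 and 42.3 percentiles in Cdk8Tg. The fall stayed called in all 13 alternative analyses that tested it, with adjusted p between 0.0034 and 0.041. In the authors' deposited table Adra1a was at 8.07 FPKM in WT, with 0.316 FPKM in Cdk8Tg, with a q-value of 8.6e-04. The gene (ENSMUSG00000045875.13) lies on chromosome 14 at 66635251 to 66771168 of GRCm38.

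Adra1b, the alpha-1B subtype, fell less. The Cdk8Tg libraries held 7.75 and 4.53 FPKM, against 11.4 and 10.9 FPKM in WT. The WT libraries were close to each other, whereas Cdk8Tg replicate 2 lay well below replicate 1. The means were 6.14 ± 2.28 and 11.2 ± 0.404 FPKM (SD, n = 2 per group), so that Cdk8Tg held 55.0% of the WT level. The log2 change was -0.81 ± 0.22 (SE; limma adjusted p = 0.049). This call was lost when Cdk8Tg replicate 2 was left out (log2 change -0.47, limma adjusted p = 0.065) and when either WT library was (0.17 for each). It was also lost with no filter (0.13), on the equal-sum scale (0.058), without a variance trend (0.058) and with robust variance (0.051). Across the alternatives it was past the threshold in 7 of 14, and the direction was down in all of them. The authors' deposited table called it, at 14.2 FPKM in WT, with 7.02 FPKM in Cdk8Tg, with a q-value of 8.6e-04. The gene (ENSMUSG00000050541.14) lies on chromosome 11 at 43774606 to 43901210 of GRCm38.

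Adra1d, the alpha-1D subtype better known from vascular smooth muscle, did not follow the others down. It was at 1.65 and 1.81 FPKM in Cdk8Tg, against 1.15 and 1.18 FPKM in WT. Both Cdk8Tg libraries were above both WT libraries, but the log2 change of 0.34 ± 0.13 (SE; limma adjusted p = 0.11, 95% interval 0.02 to 0.65) was not called. On the equal-sum scale it was (log2 change 0.45, limma adjusted p = 0.036). In the authors' deposited table Adra1d shares a single assembled locus with 12 other symbols, and it had a q-value of 0.95. Its exons overlap those of Gm14285 on the opposite strand, and 6.31% of its 31-base stretches occur there, so its value is uncertain if strand was not used in counting.

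The 3 alpha-1 genes together thus shrank and changed in make-up. Their summed FPKM was 9.65 and 6.65 in the transgenic libraries against 17.2 and 20.2 in WT. The mean sums were 8.15 ± 2.13 and 18.7 ± 2.12 (SD, n = 2 per group). FPKM are per length, so levels of the genes can be set against each other. Adra1a supplied 26.6% and 40.2% of the sum in the WT libraries and 2.61% and 4.58% in the Cdk8Tg libraries. Adra1b supplied the most in every library, 66.7% and 53.9% in WT and 80.3% and 68.1% in Cdk8Tg. Adra1d went from 6.72% and 5.85% to 17.1% and 27.3%. The shares of a library add up to a whole, so the fall of Adra1a by itself raises the other shares, and the 3 are not separate results. Adra1d itself was not called (limma adjusted p = 0.11). A share within a library does not depend on scaling between libraries. With 2 libraries per group the smallest p of a two-sided exact permutation test is 0.33, and none is given.

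**Figure D2:**
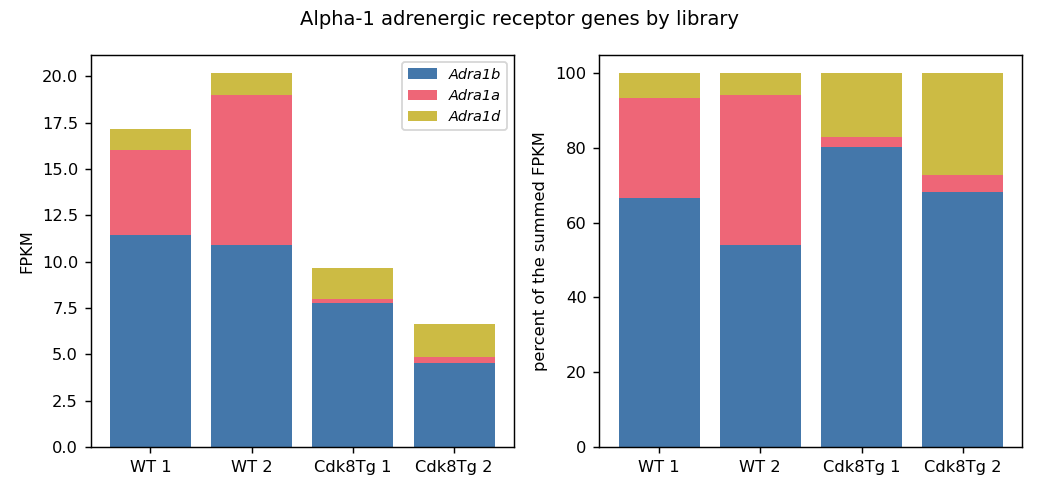
Alpha-1 adrenergic receptor genes in each library, as stacked FPKM on the left and as percent of their summed FPKM on the right. The Adra1a segment is 26.6% and 40.2% in WT and 2.61% and 4.58% in Cdk8Tg, and the whole bar is lower in Cdk8Tg.

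Adrb1, the beta-1 adrenergic receptor and the main beta receptor of cardiac myocytes, rose. It stood at 5.76 and 5.22 FPKM in Cdk8Tg, against 3.42 and 3.77 FPKM in WT, with the 2 libraries of each group close together and the groups apart. The means were 5.49 ± 0.383 and 3.60 ± 0.251 FPKM (SD, n = 2 per group), a ratio of 1.53. The log2 change was 0.50 ± 0.11 (SE; limma adjusted p = 0.028), or 0.37 above the median of all rows tested. Among the 2009 rises it ranked 1171st in size. This rise depended on scaling and on single libraries. It was not called after median-of-ratios scaling (log2 change 0.38, limma adjusted p = 0.068), quantile normalization (0.35, 0.086) or with no filter (0.074). Leaving out Cdk8Tg replicate 1 (limma adjusted p = 0.085) or 2 (0.064) ended the call too, as did leaving out WT replicate 1 (0.13) or 2 (0.11). The authors' deposited table did not call it either (q-value 0.25). The direction was up in all 13 alternatives that tested it. The gene (ENSMUSG00000035283.5) lies on chromosome 19 at 56722199 to 56733113 of GRCm38.

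Adrb3, the beta-3 receptor best known from fat cells, was at the edge of detection. It was at 0.057 and 0.059 FPKM in Cdk8Tg, listed at 0 in WT replicate 1 and at 0.025 FPKM in WT replicate 2. These values correspond to about 1.95, 1.94, 0 and 0.95 fragments, so no difference was detectable at this depth. Of its 31-base stretches, 17.6% occur in other annotated genes. The ratio of Adra1b to Adrb1 FPKM, which does not depend on scaling, was 1.35 and 0.868 in Cdk8Tg and 3.35 and 2.88 in WT.

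**Figure D3:**
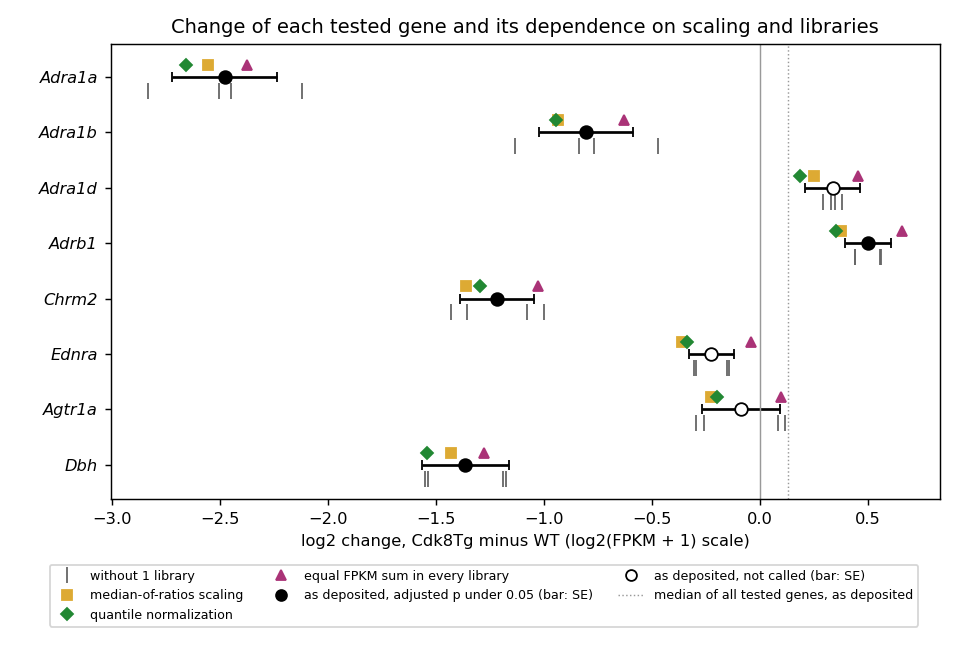
Log2 change (Cdk8Tg minus WT, log2(FPKM + 1) scale) of the 8 tested genes. Large circles with SE bars are values as deposited (filled where the adjusted p is under 0.05), squares, diamonds and triangles are other scalings, ticks leave out 1 library each, and the dotted line is the median of all rows tested (0.13). Adra1a, Adra1b, Chrm2 and Dbh lie left of 0 and Adrb1 and Adra1d right of it under all of these settings, whereas Agtr1a lies on both sides.

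Chrm2, the M2 muscarinic receptor that carries the vagal brake on the heart, was the most abundant of the 9 genes in WT and fell in Cdk8Tg. It stood at 21.1 and 15.4 FPKM in Cdk8Tg, against 47.8 and 39.2 FPKM in WT. The groups were well apart, and their means, 18.2 ± 4.03 and 43.5 ± 6.08 FPKM (SD, n = 2 per group), differed 2.38-fold. The log2 change was -1.22 ± 0.17 (SE; limma adjusted p = 0.011). It kept its direction in all 14 alternatives and its call in 11. Leaving out WT replicate 1 (log2 change -1.08, limma adjusted p = 0.061) or WT replicate 2 (-1.36, 0.055) ended the call, as did using no filter (0.052). In the authors' deposited table it was at 55.1 FPKM in WT, with 20.8 FPKM in Cdk8Tg (q-value 8.6e-04), on a locus that it shares with 2 other symbols. The other muscarinic receptor genes, Chrm1, Chrm3, Chrm4 and Chrm5, all had means under 1 FPKM and were not tested, and Chrm5 was listed at 0 in every library. Exons of Chrm2 overlap those of 9330158H04Rik on the opposite strand, and 1.84% of its 31-base stretches occur in that gene. The gene (ENSMUSG00000045613.9) lies on chromosome 6 at 36388084 to 36528414 of GRCm38.

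Among genes that work with Chrm2, Kcnj3, which encodes the GIRK1 subunit of the acetylcholine-gated potassium channel, also fell. It was at 5.98 and 5.05 FPKM in Cdk8Tg, against 18.1 and 20.4 FPKM in WT, a log2 change of -1.64 ± 0.11 (SE; limma adjusted p = 0.0033). Kcnj5, which encodes the partner subunit GIRK4, was at 39.4 and 31.2 FPKM in Cdk8Tg, against 33.4 and 33.5 FPKM in WT and was not called (limma adjusted p = 0.71). The ratio of Kcnj5 to Kcnj3 FPKM was 6.59 and 6.17 in Cdk8Tg against 1.85 and 1.64 in WT. Gnai1, an inhibitory G protein alpha subunit, rose from a low level, by 0.80 ± 0.12 (SE; limma adjusted p = 0.012), to 4.81 and 5.75 FPKM from 2.61 and 2.60 FPKM. Gnai1 lost this call with no filter and without either WT library. Its relative Gnai2, at 89.3 to 108 FPKM, was not called (limma adjusted p = 0.068).

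Most of the ventricular myocyte markers and some conduction system and leukocyte markers were called lower, as Chrm2 was. No atrial marker was called lower, but most of their values spread widely between libraries. In bulk tissue, fewer cells of a type and less RNA per cell cannot be told apart. Of 8 ventricular myocyte markers, 5 fell (Tnni3, Myl3, Tnnt2, Ryr2 and Myh6) and 1 rose (Irx4), and their summed FPKM was 26664 to 27717 in Cdk8Tg and 43030 to 44311 in WT. The ratio of Chrm2 to Actn2, a myocyte marker that was not called, was 0.036 and 0.028 in Cdk8Tg and 0.080 and 0.063 in WT. Its ratio to Tnni3, adult cardiac troponin I, was 0.0105 and 0.0081 in Cdk8Tg and 0.0072 and 0.0060 in WT. Of the 8 ventricular markers, only Tnni3 fell more than Chrm2 (29.8% against 42.0% of WT). The others were at 57.6% (Ryr2) to 201% (Irx4) of WT. The 5 atrial markers differed between libraries of 1 group, with summed FPKM of 863 and 2417 in Cdk8Tg against 671 and 226 in WT, and of these only Nppa was called, higher. Myl7, an atrial myosin light chain, measured 8.51, 52.7, 136 and 11.6 FPKM in Cdk8Tg replicates 1 and 2 and WT replicates 1 and 2. Of 8 conduction system markers 5 were tested and 2 fell, Hcn4 and Cntn2, and the sums were 10.1 to 10.2 FPKM in Cdk8Tg and 12.03 to 12.3 FPKM in WT. Of 5 tested leukocyte markers 2 fell (Csf1r and C1qa), with sums of 49.1 to 61.3 FPKM in Cdk8Tg and 80.5 to 83.7 FPKM in WT, and of 6 endothelial markers none was called. Of all rows tested, 7.98% were called lower and 16.9% higher. With no filter, only Tnni3 and Csf1r of the markers named here kept their calls (limma adjusted p = 0.041 and 0.048). The part of these cell types in the fall of Chrm2 or of the alpha-1 genes was not tested.

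Ednra, the endothelin A receptor, and Agtr1a, the type 1a angiotensin receptor, were among the more abundant of the 9 genes and were not called. Ednra stood at 11.2 and 12.7 FPKM in Cdk8Tg, against 14.9 and 13.4 FPKM in WT, with all Cdk8Tg values below all WT values. Its log2 change was -0.23 ± 0.10 (SE; limma adjusted p = 0.16, 95% interval -0.48 to 0.03). On the equal-sum scale it was -0.04 and after median-of-ratios scaling -0.36 (limma adjusted p = 0.054). Agtr1a stood at 18.1 and 14.1 FPKM in Cdk8Tg, against 19.9 and 14.6 FPKM in WT. Replicate 1 was above replicate 2 in both groups, and the groups overlapped almost wholly. The log2 change was -0.09 ± 0.18 (SE; limma adjusted p = 0.73, 95% interval -0.54 to 0.36). In Agtr1a, 4.29% of the 31-base stretches occur in its paralog Agtr1b, which was at 0 to 0.076 FPKM. In the authors' deposited table the q-values were 0.16 for Ednra and 0.47 for Agtr1a. On GRCm38, Ednra (ENSMUSG00000031616.7) lies on chromosome 8 at 77663031 to 77724464 and Agtr1a (ENSMUSG00000049115.15) on chromosome 13 at 30336441 to 30382867. Fibroblasts and smooth muscle cells also carry these receptors. Of 7 fibroblast markers, 5 rose (Lum, Col1a1, Col1a2, Pdgfra and Tcf21), against 16.9% of all rows tested. With no filter, only the call of Lum stayed (limma adjusted p = 0.047). Of 7 smooth muscle and pericyte markers none was called. The summed FPKM was 865 and 1080 in Cdk8Tg against 721 and 691 in WT for the fibroblast markers, and 618 and 805 against 567 and 571 for the others. Their part in the values of Ednra and Agtr1a was not tested.

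Of the tested genes in the endothelin, renin-angiotensin and acetylcholine lists, only some of the renin-angiotensin list were called, and 24.9% of all rows were. In the endothelin system, 0 of 4 tested genes (Edn1, Ednrb, Ece1 and Ece2) were called with limma, and Ece2 alone had an unadjusted p under 0.05 (0.028). In the renin-angiotensin system, 2 of 5 tested genes rose and 1 fell. Agt, the precursor of angiotensin, was at 0.630 and 1.02 FPKM in Cdk8Tg, against 1.66 and 1.89 FPKM in WT (log2 change -0.61 ± 0.16, SE; limma adjusted p = 0.048), and passed the filter through its WT values alone. Its call was lost with no filter (0.087), with a pseudocount of 0.1 (0.057), under equal-sum scaling (0.056) and without any library except Cdk8Tg replicate 2. Agtrap, an adaptor that binds the type 1 receptor and promotes its internalisation, rose by 0.40 ± 0.09 (SE; limma adjusted p = 0.034), and Atp6ap2, the prorenin receptor, by 0.43 ± 0.10 (0.038). Both calls were lost with no filter, after median-of-ratios scaling, with quantile normalization and without any library except Cdk8Tg replicate 1. Renin (Ren1) was listed at 0 in 3 of 4 libraries. Mas1, the receptor of angiotensin-(1-7), was under the filter and is named because of its values, which were 0.033 and 0.067 FPKM in Cdk8Tg and 0.571 and 0.740 FPKM in WT. With no filter its log2 change was -0.66 ± 0.07 (SE; limma adjusted p = 0.040). Edn3, an endothelin, was named for the same reason, at 0.618 and 2.55 FPKM in Cdk8Tg, against 0.071 and 0.023 FPKM in WT, and was not called with no filter (limma adjusted p = 0.155). On the acetylcholine side, Chat and Slc18a3, which make and load the transmitter, were listed at 0 in every library, and 0 of the 2 genes tested were called. These were Ache, with a log2 change of -0.37 (limma unadjusted p = 0.037, adjusted p = 0.099), and Bche, with 0.33 (0.023 and 0.073).

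Dbh, the enzyme that turns dopamine into noradrenaline, was low in WT and lower still in Cdk8Tg. It was at 0.462 and 0.147 FPKM in Cdk8Tg, against 1.93 and 2.80 FPKM in WT. The groups were far apart, and the 2 Cdk8Tg libraries differed from each other on about 14.4 and 4.4 fragments. WT values rested on about 66.9 and 97.3 fragments. The means were 0.305 ± 0.223 and 2.36 ± 0.612 FPKM (SD, n = 2 per group), 7.76-fold lower in Cdk8Tg. The log2 change was -1.36 ± 0.20 (SE; limma adjusted p = 0.013), and -2.70 with a pseudocount of 0.1. It stayed called in 12 of 13 alternatives and lost its call without WT replicate 2 (log2 change -1.18, limma adjusted p = 0.084). The authors' deposited table gave 3.01 FPKM in WT, with 0.35 FPKM in Cdk8Tg (q-value 0.0028). The gene (ENSMUSG00000000889.8) lies on chromosome 2 at 27165233 to 27183200 of GRCm38, and none of its 31-base stretches occurs in another annotated gene.

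Beside Dbh, the genes that define a noradrenergic cell differed in level. Tyrosine hydroxylase (Th), which makes the precursor of dopamine, was listed at 0 in both WT libraries and in Cdk8Tg replicate 2 and was at 0.047 FPKM in Cdk8Tg replicate 1. The noradrenaline transporter gene Slc6a2 was at 0.011 to 0.039 FPKM. Slc18a2, the transporter that loads amines into vesicles, stood at 1.18 and 0.853 FPKM in Cdk8Tg, against 1.08 and 0.668 FPKM in WT, and the groups overlapped. Of 13 markers of sympathetic neurons and chromaffin cells, Chga, Snap25 and Syt1 were listed at 0 in every library and 12 had means under 1 FPKM. Their summed FPKM was 5.19 and 4.38 in Cdk8Tg and 4.29 and 3.58 in WT, most of it from Stmn2, Slc18a2 and Gap43. Chgb was listed at 0 in both Cdk8Tg libraries and was at 0.077 and 0.102 FPKM in WT, on about 2.9 and 3.8 fragments. Phox2a went the other way, at 0.366 and 0.270 FPKM in Cdk8Tg and 0.183 and 0.137 FPKM in WT. So did Prph, at 0.047 and 0.194 FPKM in Cdk8Tg and 0 and 0.041 FPKM in WT. Stmn2 was the marker that was tested, and it was not called (limma adjusted p = 0.14). Of 4 Schwann cell markers 1 was tested and was not called, with sums of 3.94 and 4.61 FPKM in Cdk8Tg and 4.74 and 4.13 FPKM in WT. The part of these cell types in the fall of Dbh was not tested, and the cells that hold Dbh RNA were not identified here.

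In the wider catecholamine list, 1 of 10 tested genes rose and 1 fell, against 16.9% and 7.98% of all rows tested. Pcbd1 rose from 1.24 and 0.926 FPKM in WT to 12.8 and 13.6 FPKM in Cdk8Tg (log2 change 2.77 ± 0.12, SE; limma adjusted p = 9.6e-04). It encodes a pterin dehydratase that recycles tetrahydrobiopterin, the cofactor of tyrosine hydroxylase, and is also a cofactor of the transcription factor HNF1. Maob, which breaks down amines, changed by -0.35 ± 0.09 (SE; limma adjusted p = 0.041). It lost this call without each library in turn, with no filter, without a variance trend and on the equal-sum scale. Dopa decarboxylase (Ddc), which acts just before Dbh, was at 20.0 and 8.53 FPKM in Cdk8Tg, against 7.37 and 4.94 FPKM in WT and was not called (limma adjusted p = 0.11). Pnmt, which turns noradrenaline into adrenaline, was under the filter, at 0.210 and 0.109 FPKM in Cdk8Tg, against 1.20 and 0.458 FPKM in WT. It was not called with no filter (limma adjusted p = 0.16), and it is named because it acts next to Dbh.

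**Figure D4:**
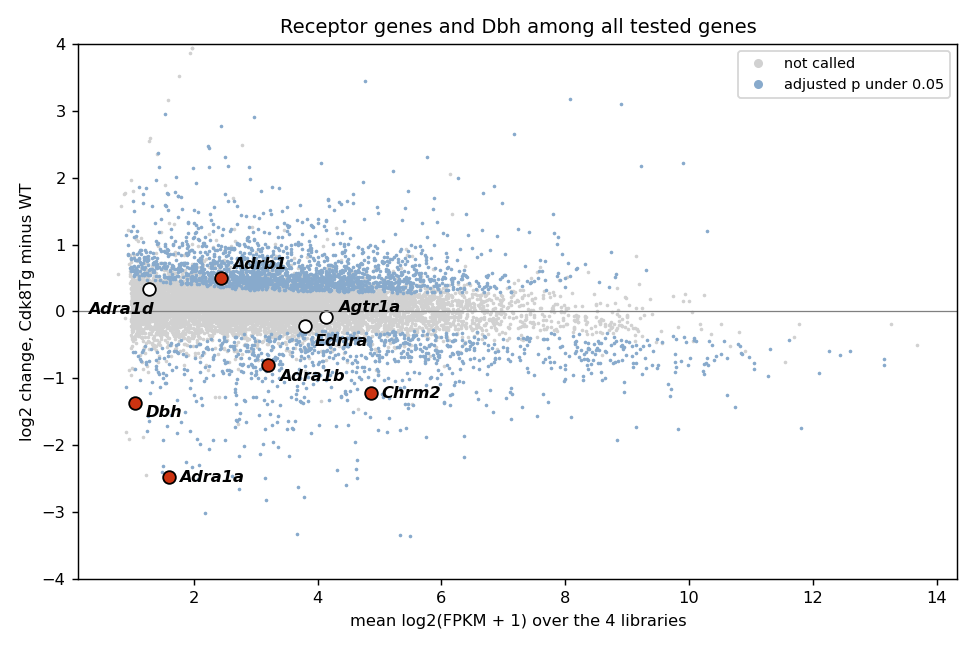
Log2 change (Cdk8Tg minus WT) against mean log2(FPKM + 1) for the rows tested with limma, called rows in blue and others in grey, with the 8 tested receptor genes and Dbh as large circles (red where called). The vertical axis stops at 4 on either side, which leaves out 8 rows. Adra1a lies near the lower edge of the cloud and Chrm2 is the most abundant of the labelled genes.

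The 10 lists of genes around the receptors (other receptors, ligand supply and breakdown, and signalling) were called in a share near that of all genes. They held 96 further genes, 67 were tested, and 12 rose and 6 fell. This balance turned with scaling, to 6 rises and 11 falls after median-of-ratios scaling, 7 and 8 with quantile normalization and 26 and 2 on the equal-sum scale. That is 26.9% of the tested genes, against 24.9% of all rows, and their median log2 change was 0.10 against 0.13. Of the 18 calls, 12 stayed after median-of-ratios scaling, 10 with quantile normalization and 6 with no filter. Leaving out Cdk8Tg replicate 1 left 12 of them and replicate 2 left 9, and leaving out WT replicate 1 left 5 and replicate 2 left 4. Prkcd, Rgs2, Kcnj3 and Pcbd1 kept theirs in each of these cases.

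Among Gq effectors, 3 of 12 tested genes rose and 0 fell, against 16.9% and 7.98% of all rows tested. Prkcd, the delta isoform of protein kinase C, rose from 4.67 and 4.31 FPKM in WT to 17.1 and 20.5 FPKM in Cdk8Tg, a 4.19-fold higher level (log2 change 1.85 ± 0.12, SE; limma adjusted p = 0.0024). Prkca, the alpha isoform, rose by 0.59 ± 0.10 (SE; limma adjusted p = 0.017), a call lost with no filter and without each library in turn. Plcb4, a phospholipase C, rose by 0.55 ± 0.15 (SE; limma adjusted p = 0.049). Its call was lost with a pseudocount of 5, with no filter, after median-of-ratios scaling and with quantile normalization. It was also lost without a variance trend and without any library except Cdk8Tg replicate 1. Gnaq and Gna11, which encode the Gq family subunits, were at 7.66 to 9.10 and 19.6 to 22.1 FPKM and were not called (limma adjusted p = 0.20 and 0.42).

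Among receptor kinases, arrestins and RGS proteins, 3 of 12 tested genes rose and 1 fell, against 16.9% and 7.98% of all rows tested. Rgs2, a GTPase-activating protein that shortens Gq signals, was at 6.08 and 5.93 FPKM in Cdk8Tg, against 26.4 and 16.5 FPKM in WT. Both WT libraries were far above both Cdk8Tg libraries (log2 change -1.64 ± 0.21, SE; limma adjusted p = 0.0092). Adrbk2, the receptor kinase GRK3, rose from 4.77 and 4.32 FPKM to 8.04 and 9.21 FPKM, by 0.80 ± 0.11 (SE; limma adjusted p = 0.011), and lost the call without WT replicate 2. Adrbk1, the receptor kinase GRK2, was at 16.7 to 18.3 FPKM in all 4 libraries and was not called (limma adjusted p = 0.45). Rgs3 and Snx27, an RGS protein and a sorting nexin that recycles beta receptors, rose by 0.39 and 0.36 (limma adjusted p = 0.027 and 0.047). Both calls were lost with no filter, after median-of-ratios scaling, with quantile normalization and without each library in turn. The Snx27 call was also lost without a variance trend and with the replicate number as a block.

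Among 13 tested Gs and Gi effectors, 2 rose and 3 fell, against 16.9% and 7.98% of all rows tested. Besides Kcnj3, the falls were Pln, phospholamban, the brake on the calcium pump that protein kinase A releases, and Adcy6, a cardiac adenylyl cyclase. Pln was at 2337 and 1837 FPKM in Cdk8Tg, against 3113 and 3040 FPKM in WT (log2 change -0.57 ± 0.15, SE; limma adjusted p = 0.045). Adcy6, which the rule for named genes did not select, changed by -0.35 ± 0.09 (SE; limma adjusted p = 0.048). Pln changed by only -0.068 after quantile normalization (limma adjusted p = 0.55), and by -0.37 on the equal-sum scale (0.069). It also lost its call with no filter (0.16) and with the replicate number as a block (0.060). Adcy6 passed the threshold in 5 of 14 alternatives, and its call was lost without each library in turn, with adjusted p between 0.026 and 0.22 over the alternatives (limma). The rises were Prkar1a, a regulatory subunit of protein kinase A, by 0.76 ± 0.09 to 241 and 260 FPKM (SE; limma adjusted p = 0.0073), and Rapgef4, the cyclic AMP sensor Epac2, by 0.52 ± 0.11 (0.025). The Rapgef4 call was lost after median-of-ratios scaling (0.055), with quantile normalization (0.061), with no filter (0.069) and without Cdk8Tg replicate 2 (0.092). Adcy5, the other major cardiac cyclase, was not called (limma adjusted p = 0.60). Leaving out WT replicate 1 or WT replicate 2 ended the calls of all of these except Kcnj3.

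**Figure D5:**
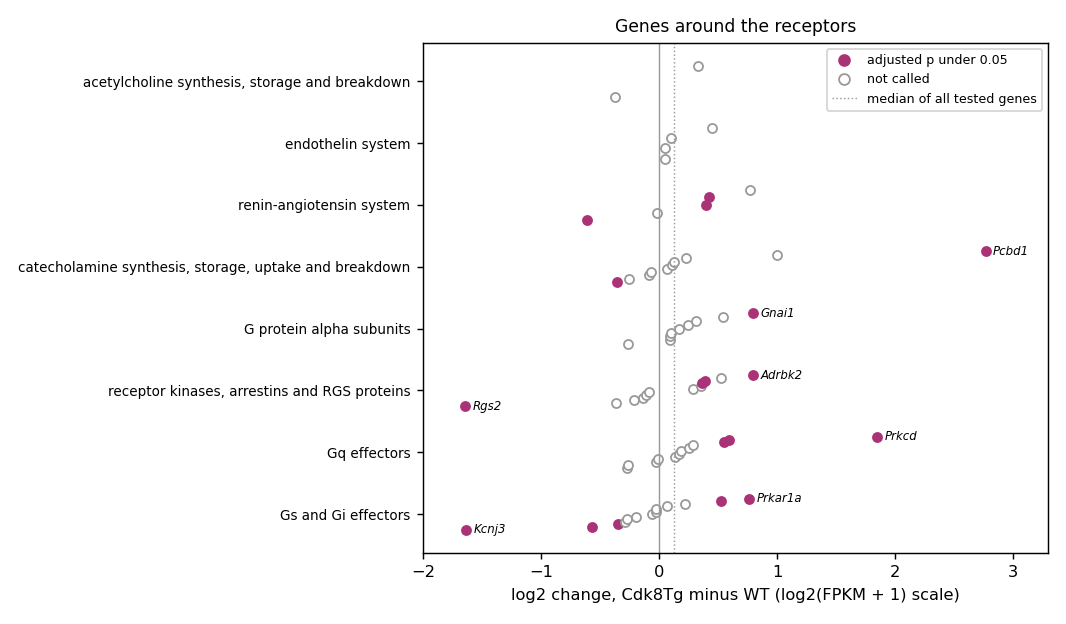
Log2 change (Cdk8Tg minus WT) of each tested gene of the lists around the receptors, 1 row per list. Filled points have an adjusted p under 0.05, and the dotted line is the median of all rows tested (0.13). Pcbd1 and Prkcd lie farthest to the right, at 2.77 and 1.85, and Rgs2 and Kcnj3 farthest to the left, both at -1.64.

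The order of the 9 genes by level differed between the groups. In WT it was Chrm2, Agtr1a, Ednra, Adra1b, Adra1a, Adrb1, Dbh, Adra1d and Adrb3, and of the neighbours only Agtr1a and Ednra overlapped. In Cdk8Tg it was Chrm2, Agtr1a, Ednra, Adra1b, Adrb1, Adra1d, Dbh, Adra1a and Adrb3, with overlap between Chrm2 and Agtr1a, Adra1b and Adrb1, and Dbh and Adra1a. Adra1a thus stood 5th in WT and 8th in Cdk8Tg. The ratio of Chrm2 to Adrb1 FPKM was 14.0 and 10.4 in WT and 3.66 and 2.95 in Cdk8Tg. This difference follows from the lower Chrm2 and higher Adrb1 values given above and is no separate result. The ratio of Chrm2 to Agtr1a was 2.41 and 2.67 in WT and 1.16 and 1.09 in Cdk8Tg.

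For each called gene, the tested genes with the most similar profile were those at the smallest Euclidean distance between log2(FPKM + 1) values centred over the 4 libraries, a description over 4 points. Nearest to Adra1a were Chac1 (distance 0.27), Rhobtb1 (0.30) and Lrg1 (0.36). Nearest to Adra1b were Ryr2, the calcium release channel of the sarcoplasmic reticulum (0.085), Extl1 (0.093) and Ky (0.10), of which Ky was not itself called (limma adjusted p = 0.054). Nearest to Chrm2 were Fhl2, a LIM domain protein of heart muscle (0.076), C130080G10Rik (0.081) and Fam69b (0.12). Nearest to Dbh were Selenbp2 (0.13), Sorcs2 (0.17) and Dhrs7c, a dehydrogenase of the sarcoplasmic reticulum (0.18). The added 1 FPKM compresses changes of low genes, so these likenesses do not extend to fold changes. Dbh was 7.76-fold lower in Cdk8Tg, whereas Selenbp2 was at 11.4 and 9.53 FPKM, against 25.4 and 30.3 FPKM in WT. Adra1a was 22.8-fold lower, whereas Lrg1 was at 2.67 and 2.83 FPKM, against 18.6 and 21.5 FPKM in WT. Nearest to Adrb1 were Dock8 (0.017), Copg2 (0.018) and the G protein gamma subunit gene Gng10 (0.026).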

How the data were processed

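The 4 libraries were polyadenylated RNA from ventricle, sequenced as stranded TruSeq libraries per the labels' protocols. Per the submitters' processing notes, TopHat (version 1.0.0) with mm10, Cufflinks and Cuffdiff were used. The sources used here do not state the annotation, the strand setting or the scaling between libraries. The authors deposited FPKM per gene and library and a Cuffdiff table with FPKM per group, a p-value and a q-value, per the file headers. Calls in it are at a q-value under 0.05. Its fold change columns were not used. Nothing in the labels ties each library to its own animal, and p-values therefore reflect sample-to-sample spread that may be technical.

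FPKM are not counts, so log2(FPKM + 1) values were fitted with limma 3.58.1 in R 4.3.3, using empirical Bayes variances with a trend, over all rows with a mean of at least 1 FPKM, with Benjamini-Hochberg adjustment over these rows and two-sided p-values called under 0.05. Intervals of log2 changes are limma's. Columns summed to 440324 to 510844 FPKM. Depth, estimated from the spacing of low FPKM values in single-transcript genes, was 11.7 to 12.2 M fragments in Cdk8Tg and 13.6 M in both WT libraries. Fragment numbers use it with the longest coding transcript of GENCODE M21 (GRCm38). They assume scaling by each library's own total, which is not stated. They cover counting error only.

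The members and lists were chosen with earlier results of these data known. Named were all 9 genes, up to 4 called genes per list by smallest p, and the 3 nearest profiles. Others were named after their values were seen. A gene of the receptor lists and a gene of the marker lists are not reported here.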

Additional observations from a re-analysis of the deposited data

How the results depend on the processing

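Of the 9 genes, 5 were called with all libraries. The number was 2 with no filter and 2 with a minimum of 5 FPKM, which tested only Adra1b and Chrm2 of these 5, and 1 to 4 when a library was left out. Over all rows the number called was 1055 with no filter, 5552 on the equal-sum scale and 287 to 2380 without a library, against 2958. Over the lists around the receptors it was 8 with no filter, 28 on the equal-sum scale (26 rises and 2 falls) and 4 to 15 without a library, against 18. The share of rises among all calls was 67.9% as deposited, 40.6% after median-of-ratios scaling, 48.8% with quantile normalization and 88.2% on the equal-sum scale. The log2 change of Agtr1a, not called, turned to 0.10 on the equal-sum scale, 0.08 without Cdk8Tg replicate 2 and 0.12 without WT replicate 1 (range without a library -0.30 to 0.12). The cause was not tested. No other change named for the 9 genes, the called list genes or the nearest profiles turned. With the replicate number as a block, 2825 rows and 5 of the 9 genes were called, and Adra1b had an adjusted p of 0.025 (limma). Same-numbered libraries did not deviate together (correlation -0.026 over 11888 rows). The number was not used as a pairing in the main fit. A single correlation from 2 libraries per group cannot exclude a pairing. Without a library, 1 residual degree of freedom is left and the single sample of an arm takes its spread from the other arm. Values of Adrb3 and of Dbh in Cdk8Tg rest on few fragments.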
